A study of Mus musculus with 11 samples.

Results

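The 10 transcripts described here encode enzymes of serine synthesis (Phgdh, Psat1, Psph), of the transfer of carbon units from serine to folate (Shmt1, Shmt2, Mthfd2, Mthfd1l), of glycine methylation (Gnmt) and of transsulfuration (Cbs, Cth). They were chosen by gene symbol, with earlier results of these data known. For each gene, the probe set that carries that symbol alone in the platform annotation was taken, and all 10 had exactly 1 such probe set, out of 19938 genes measured in this way. They were measured in total RNA of whole pancreas from wild-type C57Bl6J mice, with 1 Affymetrix array per sample. The caerulein group (6 arrays) came from mice given 9 hourly intraperitoneal injections of caerulein, a peptide that overstimulates acinar cells through cholecystokinin receptors and so induces acute pancreatitis. A dose of 50 mg/kg is stated for the series, and its unit could not be checked. The NaCl group (5 arrays) came from mice injected with sodium chloride. All 5 NaCl samples named by the titles were used, although the series text has 4 control mice. The mice's age is not stated, nor how long after the last injection the tissue was taken. The labels do not say that samples and mice correspond singly, so p-values cover only the spread between these samples, which may be technical.

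Serine is made from a glycolytic intermediate in a short chain of reactions, and it feeds protein synthesis, phospholipids, glycine and glutathione. Serine hydroxymethyltransferases split it into glycine and a carbon unit carried by folate, in parallel arms in the cytosol and in mitochondria. Serine also gives its carbon skeleton to cysteine in transsulfuration, where it is joined to homocysteine, the product of methylation reactions. The exocrine pancreas makes large amounts of secreted protein and is known for high levels of several of these enzymes, Gnmt and Cbs among them. In mouse and human cells, the transcription factor ATF4 of the integrated stress response drives many genes of serine synthesis and of the mitochondrial folate arm.

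In caerulein pancreas, 5 of the 10 transcripts were higher than in NaCl pancreas and 2 were lower, and the other 3 did not pass the test. Higher were Phgdh and Psat1 of serine synthesis and Shmt2, Mthfd1l and Mthfd2, which carry carbon units along the mitochondrial folate arm. Lower were Gnmt and Cbs. Psph, Shmt1 and Cth did not pass. The test was limma's, called at an adjusted p under 0.05 after Benjamini-Hochberg adjustment over all 35556 probe sets. All differences are caerulein minus NaCl on the log2 scale of the deposited values, with the fit's standard error (SE). Calls were common in the whole table: 16.4% of all probe sets were higher and 27.8% lower, 44.2% in all. Over the 19938 genes these shares were 20.3%, 34.3% and 54.6%. The median difference was 0.52 over the 10 enzymes, against -0.11 over all probe sets. The 6 caerulein arrays were all above the 5 NaCl arrays for the 5 higher enzymes, and all below for the 2 lower ones. Such separation was found upward for 12.7% and downward for 15.6% of all probe sets, and for 16.7% and 20.6% of genes. The plot by array shows these separations.

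**Figure D1:**
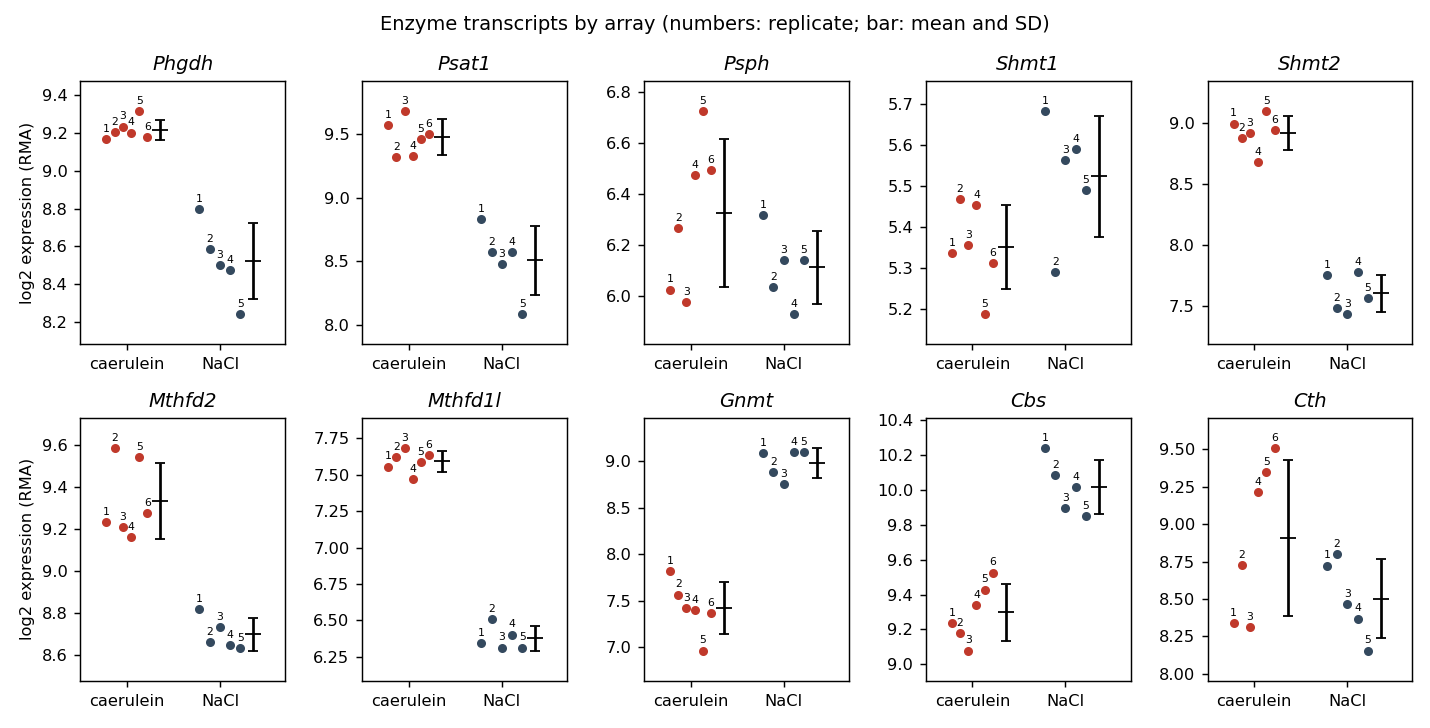
Log2 expression of the 10 enzyme transcripts (vertical axis, RMA values) on the 6 caerulein and 5 NaCl arrays. Points are arrays with their replicate number, and bars are the mean and SD. Points of the 2 groups do not overlap for Phgdh, Psat1, Shmt2, Mthfd2, Mthfd1l, Gnmt and Cbs. For Cth, caerulein replicates 4 to 6 lie between 9.22 and 9.51, and replicates 1 to 3 lie between 8.31 and 8.73, among the NaCl arrays.

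The zero point of these differences depends on how arrays are scaled to each other. The calls for Shmt2, Mthfd1l, Gnmt and Cbs held as deposited and under all 4 rescalings tried: a second quantile normalisation, cyclic loess, equal 75th percentiles and an equal mean of 11 commonly used reference genes. The calls for Phgdh, Psat1 and Mthfd2 held under the first 3 rescalings and were lost with an equal reference gene mean, where their differences were -0.10, 0.17 and -0.16 (limma adjusted p = 0.315, 0.152 and 0.191). That scaling moved the median of all probe sets to -0.90. As deposited, 6 of the 11 reference genes were themselves called higher and 0 lower, with a median difference of 0.40. As the plot of scalings shows, Shmt2 and Mthfd1l had the 2 highest differences of the 10 enzymes and Gnmt the lowest under each of the 5 scalings.

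**Figure D2:**
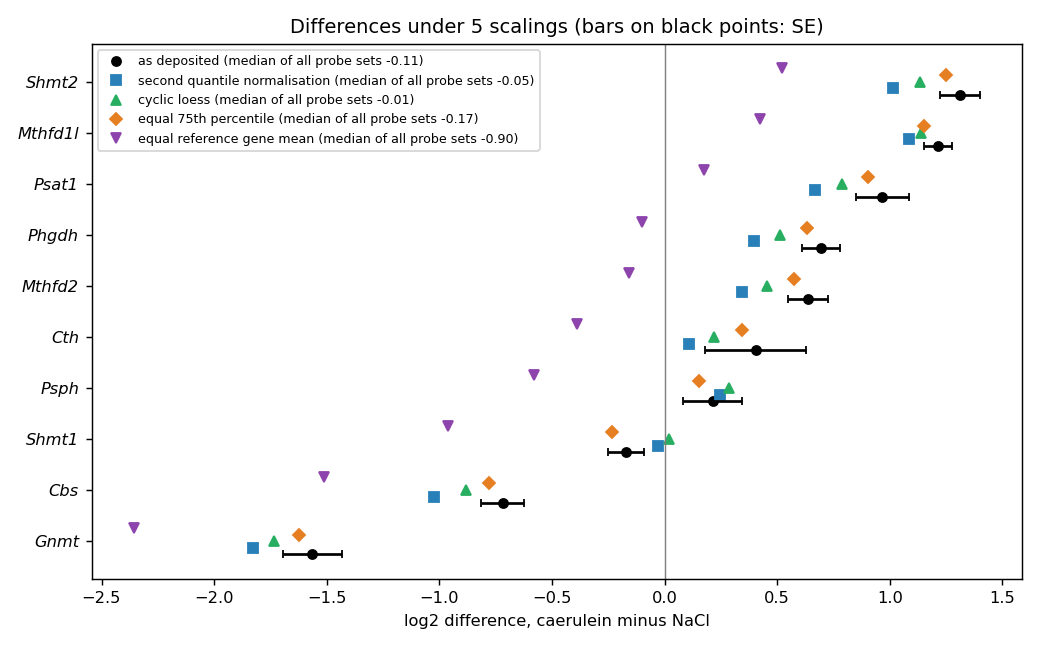
Log2 difference, caerulein minus NaCl, of each enzyme transcript (horizontal axis) as deposited and under 4 rescalings, with the SE on the values as deposited. The median over all probe sets stands in the legend for each scaling. Shmt2 and Mthfd1l lie above 0 and Gnmt and Cbs below 0 under every one of the 5 scalings.

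The caerulein arrays differed between replicates 1 to 3 and replicates 4 to 6, a split chosen after the data had been seen. After the caerulein mean of each probe set was removed, the first principal component of the 6 arrays (31.4% of their variance) had scores of 38.4, 7.68 and 9.61 for replicates 1, 2 and 3 and of -20.9, -14.7 and -20.1 for replicates 4, 5 and 6. Correlations of these deviations were -0.39 to -0.24 between the sets of replicates, and -0.13 to 0.06 within them. Removing the mean makes such correlations negative on average, so only the contrast of these ranges was read. No label says what separates the sets. Values or counts without replicates 1 to 3 or without 4 to 6 are therefore given beside Psph, Cth and the ratio whose calls they changed. They are also given for some of the related genes and cell type markers, but not for every changed call among these. The 7 calls among the enzymes were kept both ways.

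Phgdh encodes the dehydrogenase that opens the serine pathway. Its log2 expression had a lowest value of 9.17, a median of 9.20 and a highest value of 9.31 in caerulein pancreas, against 8.80, 8.59, 8.50, 8.48 and 8.24 on the 5 NaCl arrays. The caerulein arrays were close together and all above the highest NaCl array. The difference was 0.69 (SE 0.09, limma adjusted p = 3.16e-05), a 1.62-fold rise. Another probe set is annotated to Phgdh together with Gm6756, so the probes may not separate Phgdh from that copy. It averaged 9.79 ± 0.08 in caerulein pancreas (SD, n = 6) and 9.13 ± 0.24 in NaCl pancreas (SD, n = 5), a difference of 0.66 (SE 0.10, limma adjusted p = 0.000157).

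Psat1, the aminotransferase of the next step, reached 9.32 at the lowest, 9.48 at the median and 9.68 at the highest in caerulein pancreas, against 8.84, 8.57, 8.48, 8.58 and 8.09 on the NaCl arrays. It had the largest rise of the serine synthesis enzymes, 0.97 (SE 0.12, limma adjusted p = 2.59e-05) or 1.95-fold, and its groups did not overlap. Psph, the phosphatase that releases serine, had values of 6.02, 6.26, 5.97, 6.47, 6.72 and 6.49 in caerulein replicates 1 to 6, against 6.32, 6.03, 6.14, 5.93 and 6.14 on the NaCl arrays. Its groups overlapped, with caerulein replicates 4 to 6 above all NaCl arrays and replicates 1 to 3 among them. The difference of 0.21 did not pass (95% interval -0.07 to 0.50, limma adjusted p = 0.205). Without caerulein replicates 1 to 3 it was 0.45 (limma adjusted p = 0.00862), and without replicates 4 to 6 it was -0.02 (limma adjusted p = 0.888). With an equal reference gene mean Psph was called lower (-0.58, limma adjusted p = 0.000374).

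Shmt2, the mitochondrial serine hydroxymethyltransferase, had the largest rise of the 10 transcripts as deposited, with an equal reference gene mean and with equal 75th percentiles. Mthfd1l had a larger one after a second quantile normalisation (1.08, against 1.02 for Shmt2) and after cyclic loess (1.14, against 1.13 for Shmt2). The lowest, median and highest log2 values of Shmt2 were 8.68, 8.93 and 9.09 in caerulein pancreas, against 7.75, 7.48, 7.44, 7.78 and 7.57 on the NaCl arrays. The gap between the groups was wider than the range of either. The difference was 1.31 (SE 0.09, limma adjusted p = 1.24e-07), a 2.48-fold rise. Mthfd1l, the mitochondrial synthetase that releases formate for export to the cytosol, rose 2.32-fold. It had values of 7.47, 7.60 and 7.68 at the lowest, the median and the highest in caerulein pancreas, against 6.34, 6.51, 6.31, 6.40 and 6.31 on the NaCl arrays, with a difference of 1.21 (SE 0.06, limma adjusted p = 1.00e-08). Its arrays were tightly grouped, with an SD of 0.07 in caerulein pancreas and 0.08 in NaCl pancreas. Mthfd2, the mitochondrial dehydrogenase and cyclohydrolase between these enzymes, rose less. It had 9.16, 9.25 and 9.58 in caerulein pancreas, against 8.82, 8.66, 8.73, 8.65 and 8.63 on the NaCl arrays, a difference of 0.63 (SE 0.09, limma adjusted p = 8.91e-05) or 1.55-fold. Caerulein replicates 2 and 5 were highest for Mthfd2, and all 6 lay above the NaCl arrays.

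Shmt1, the cytosolic serine hydroxymethyltransferase, had 5.19, 5.35 and 5.47 at the lowest, the median and the highest in caerulein pancreas, against 5.68, 5.29, 5.56, 5.59 and 5.49 on the NaCl arrays. NaCl replicate 2 was low and lay among the caerulein arrays, whereas the other 4 NaCl arrays lay above them all. The difference of -0.17 did not pass (95% interval -0.34 to 0.00, limma adjusted p = 0.100). It passed without NaCl replicate 2 (-0.23, limma adjusted p = 0.0254), with equal 75th percentiles (-0.23, limma adjusted p = 0.0261) and with an equal reference gene mean (-0.96, limma adjusted p = 6.05e-07), and it was 0.02 after cyclic loess.

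Gnmt encodes the methyltransferase that turns glycine into sarcosine and so consumes S-adenosylmethionine. It had the largest fall of the 10 transcripts, with 6.96, 7.41 and 7.82 at the lowest, the median and the highest in caerulein pancreas, against 9.09, 8.88, 8.75, 9.10 and 9.10 on the NaCl arrays. Caerulein replicate 5 was lowest and replicate 1 highest, and all 6 lay well below the NaCl arrays. The difference was -1.56 (SE 0.13, limma adjusted p = 8.02e-07), a 2.96-fold fall. Gnmt is also abundant in liver, so hepatocyte markers were read beside it: 4 of 5 were lower and 0 higher, beside 34.3% and 20.3% of all genes. Their mean log2 level was 5.08 to 5.28 in caerulein pancreas and 5.50 to 5.79 in NaCl pancreas. The hepatocyte gene Alb, named after its values were seen, lay between 4.38 and 4.56 in caerulein pancreas and between 4.70 and 5.00 in NaCl pancreas. Whether that is above background is unknown, and the part of liver RNA in the Gnmt difference was not tested.

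Cbs, which joins serine to homocysteine to form cystathionine, had 9.08, 9.29 and 9.53 at the lowest, the median and the highest in caerulein pancreas, against 10.24, 10.09, 9.90, 10.02 and 9.85 on the NaCl arrays. The groups did not overlap, and the difference was -0.72 (SE 0.10, limma adjusted p = 5.84e-05), a 1.65-fold fall. Cth, which cleaves cystathionine to cysteine, was the most variable of the 10 in caerulein pancreas. It had 8.34, 8.73, 8.31, 9.22, 9.34 and 9.51 in caerulein replicates 1 to 6, against 8.72, 8.80, 8.47, 8.37 and 8.16 on the NaCl arrays. Replicates 4 to 6 lay above all NaCl arrays and replicates 1 to 3 among them, as for Psph. The difference over all arrays was 0.40 (95% interval -0.08 to 0.89, limma adjusted p = 0.160). Without caerulein replicates 1 to 3 it was 0.85 (limma adjusted p = 0.00174), and without replicates 4 to 6 it was -0.04 (limma adjusted p = 0.863).

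The promoter sequences of the 4 genes whose calls held under all 5 scalings are shown for the contrast between enzymes that rose (Shmt2, Mthfd1l) and fell (Gnmt, Cbs). They are RefSeq windows of GRCm38.p6, written 5′ to 3′ from 250 bases before to 50 after an annotated start. Of the 10 genes, 9 were matched with 10 windows: Psat1 was matched at separate starts, and Cth had no window. Capitals mark matches to any of 6 motifs, searched on both strands: TGATGNAA (the CARE element bound by ATF4 dimers), TGACNNNGC (the core of the antioxidant response element), CACGTG (E-box), TGACGT (the core of the cyclic AMP response element), CCAAT and GGGCGG (GC box). The Shmt2 window is chr10:127522395-127522694 on the minus strand, the Mthfd1l window chr10:3972825-3973124 on the plus strand, the Gnmt window chr17:46729116-46729415 on the minus strand and the Cbs window chr17:31637156-31637455 on the minus strand.
Shmt2: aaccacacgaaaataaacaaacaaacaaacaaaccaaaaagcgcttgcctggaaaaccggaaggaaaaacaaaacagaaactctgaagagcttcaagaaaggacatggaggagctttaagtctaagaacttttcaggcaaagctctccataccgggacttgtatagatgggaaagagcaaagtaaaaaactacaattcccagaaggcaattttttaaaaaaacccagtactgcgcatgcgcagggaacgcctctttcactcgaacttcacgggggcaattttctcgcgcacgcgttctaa
Mthfd1l: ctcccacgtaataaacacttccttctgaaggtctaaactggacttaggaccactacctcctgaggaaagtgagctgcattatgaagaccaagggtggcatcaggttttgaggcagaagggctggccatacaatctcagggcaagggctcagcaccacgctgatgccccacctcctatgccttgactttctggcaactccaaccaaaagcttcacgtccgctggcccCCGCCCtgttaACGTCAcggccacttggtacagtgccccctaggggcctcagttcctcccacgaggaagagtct
Gnmt: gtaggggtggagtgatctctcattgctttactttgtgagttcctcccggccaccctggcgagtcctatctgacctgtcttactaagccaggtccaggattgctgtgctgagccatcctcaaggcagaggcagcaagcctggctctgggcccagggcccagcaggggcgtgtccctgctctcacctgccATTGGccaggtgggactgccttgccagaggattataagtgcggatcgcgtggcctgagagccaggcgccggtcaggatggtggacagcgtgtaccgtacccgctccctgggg
Cbs: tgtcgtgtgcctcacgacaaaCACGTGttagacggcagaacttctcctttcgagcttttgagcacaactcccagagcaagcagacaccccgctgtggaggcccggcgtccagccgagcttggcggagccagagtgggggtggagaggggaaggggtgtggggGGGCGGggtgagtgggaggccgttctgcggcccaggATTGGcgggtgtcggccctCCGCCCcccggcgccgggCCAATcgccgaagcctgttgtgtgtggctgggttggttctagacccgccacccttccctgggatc

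The Shmt2 window held none of the 6 motifs. The Mthfd1l window held a GC box at bases 227 to 232 and a cyclic AMP response element core at bases 238 to 243, counted from 1 at its 5′ end. The Gnmt window held a CCAAT box at bases 189 to 193. The Cbs window held an E-box at bases 22 to 27 and matches to CCAAT and to the GC box in 2 places each. Over all 10 windows, CCAAT was found in 7, against 37.4% of the 32851 windows in the RefSeq table, and the GC box in 5, against 35.7%. The antioxidant element core was found in Phgdh and Psph, against 12.4% of windows, and the cyclic AMP element core in Psph and Mthfd1l, against 7.51%. In Psph these 2 matches overlap, at bases 255 to 263 and 258 to 263. CARE was found in 0 of the 10 windows, against 3.97% of all windows, which says only that these letters are not in these windows. A match is a description, not a binding site.

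The RNA came from whole pancreas, so fewer cells of a type and less RNA per cell cannot be told apart. As deposited, 20.3% of all 19938 genes were higher and 34.3% lower, and the marker counts are to be read beside these shares. Of 9 acinar markers 1 was higher and 3 were lower, with a mean level of 11.3 to 11.5 in caerulein pancreas and 11.8 to 12.0 in NaCl pancreas. All 9 are named here after their values were seen. Lower were 3 transcription factors that maintain the acinar state, Bhlha15 (mean 7.65 in caerulein pancreas and 9.65 in NaCl pancreas), Rbpjl (difference -1.43) and Nr5a2 (-0.83), and higher was the transcription factor Ptf1a (0.55). The 5 secreted enzymes among them (Cpa1, Cel, Ctrb1, Cela2a and Cela3b) did not pass, with differences of -0.12 to 0.03, near the upper end of the scale. For Cel, Cela2a and Cela3b all caerulein arrays nevertheless lay below all NaCl arrays, as for 20.6% of all genes. With the trended robust prior and with equal 75th percentiles, 6 of the 9 acinar markers were lower. Of 5 duct markers 4 were higher, with a mean level of 8.04 to 8.37 in caerulein pancreas and 6.21 to 6.48 in NaCl pancreas. Macrophage markers were higher for 4 of 8 and lower for 0, with 6.45 to 7.24 in caerulein pancreas and 5.83 to 6.01 in NaCl pancreas. Of the remaining lists, 0 of 8 neutrophil and 0 of 7 lymphocyte markers were higher, and 1 and 5 were lower. Endothelial markers had 2 of 6 higher and 1 lower, fibroblast markers 1 of 7 higher and 1 lower, islet markers 0 of 6 higher and 1 lower, and adipocyte markers 0 of 4 higher and 2 lower. An equal reference gene mean called 1532 of all 35556 probe sets higher and 31165 lower. With it, 0 acinar markers were higher and 8 lower, 3 duct markers higher and 1 lower, and 3 macrophage markers higher and 5 lower. Under that scaling no marker of the other lists was higher, and 7 neutrophil, 7 lymphocyte, 6 endothelial, 6 fibroblast, 4 islet, 4 adipocyte and 5 hepatocyte markers were lower. Both a second quantile normalisation and cyclic loess gave 1 neutrophil marker higher and 0 lower, and 5 macrophage markers higher. Lymphocyte markers then had 2 and 1 lower. With equal 75th percentiles, 2 neutrophil and 6 lymphocyte markers were lower.

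Some markers also differed between the sets of caerulein replicates. Of all 35556 probe sets, 5327 were higher and 7245 lower without replicates 1 to 3, and 5000 and 6230 without replicates 4 to 6. Without caerulein replicates 1 to 3, where Psph and Cth were called higher, 4 of 7 fibroblast markers were higher (median difference 0.34) and 6 of 8 macrophage markers (median 0.58). Without replicates 4 to 6, these counts were 1 (median -0.19) and 3 (median 0.23). All 5 duct markers were higher without replicates 4 to 6, and 4 without replicates 1 to 3. Acinar markers had 0 higher without replicates 4 to 6. Lymphocyte and hepatocyte markers had 3 lower each, both ways. Without replicates 1 to 3, 0 endothelial and 0 neutrophil markers were lower, and 2 islet markers were. Without replicates 4 to 6, 0 islet markers were lower. The part of these cell types in the enzyme differences, those of Psph and Cth included, was not tested.

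Whether enzymes of the same pathway changed by unequal amounts was measured as the log2 ratio of a pair of transcripts within each array, which a shift of a whole array cannot alter. The ratio itself compares different probes and has no meaning as a level, so only its difference between groups was read. All 6 pairs differed by an exact permutation test over the 462 splits of the 11 arrays (two-sided, Benjamini-Hochberg over the 6 pairs, smallest possible raw p 0.00216). Calls were common in the whole table (54.6% of genes), and each pair holds a gene that was called alone. Pairs of other genes were not measured, so the count of 6 is not known to be particular to this pathway. Psph, Shmt1, Cth and Mthfd2l did not pass alone, so their pairs do not show that both enzymes changed. Mthfd2l is also dim.

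The pair of synthetases moved apart most. Mthfd1l minus Mthfd1 averaged 1.34 ± 0.18 in caerulein pancreas (SD, n = 6) and -0.96 ± 0.25 in NaCl pancreas (SD, n = 5), a difference of 2.30 (exact permutation adjusted p = 0.00433). Mthfd1, the cytosolic enzyme with 3 activities including the same synthetase step, fell by 1.09 itself (SE 0.11, limma adjusted p = 3.67e-06), so the mitochondrial and cytosolic transcripts moved in opposite directions. Shmt2 minus Shmt1 averaged 3.56 ± 0.23 in caerulein pancreas (SD, n = 6) and 2.08 ± 0.13 in NaCl pancreas (SD, n = 5), a difference of 1.48 (exact permutation adjusted p = 0.00433). The ranges of the groups were far apart for both pairs. Shmt1 itself lay close to the array medians and did not pass alone, so the change in this ratio is mostly that of Shmt2.

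Cth minus Cbs differed by 1.12 (exact permutation adjusted p = 0.00433), with -0.90 to -0.02 in caerulein pancreas and -1.69 to -1.29 in NaCl pancreas. Unlike Cth alone, this ratio was higher on all 6 caerulein arrays than on any NaCl array, replicates 1 to 3 included. Without replicates 4 to 6 the ratio differed by 0.81, Cbs by -0.85 and Cth by -0.04. The change of the ratio on replicates 1 to 3 is therefore mostly that of Cbs. Within serine synthesis, Psat1 minus Phgdh differed by 0.27 (exact permutation adjusted p = 0.00649) and the groups nearly met, with 0.12 to 0.45 in caerulein pancreas and -0.16 to 0.10 in NaCl pancreas. Psph minus Psat1 differed by -0.75 (exact permutation adjusted p = 0.00519). A second quantile normalisation ended that call (-0.42, adjusted p = 0.0623), as did leaving out caerulein replicates 1 to 3 (-0.47, adjusted p = 0.0536). Psat1 rose by 0.97 and Psph did not pass alone, so the change of this ratio is mostly that of Psat1. Mthfd2 minus Mthfd2l, its mitochondrial relative, differed by 0.61 (exact permutation adjusted p = 0.00519). Mthfd2l averaged 4.57 in caerulein pancreas and 4.55 in NaCl pancreas, below the median of every array, so it is not known to be above background, and this ratio carries little beyond the rise of Mthfd2 itself. Its groups all but touched, with a lowest value of 4.407 in caerulein pancreas and a highest of 4.404 in NaCl pancreas. The adjusted p of the ratio was 0.273 when arrays were quantile-normalised again (0.18) and 0.102 with cyclic loess (0.26).

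**Figure D3:**
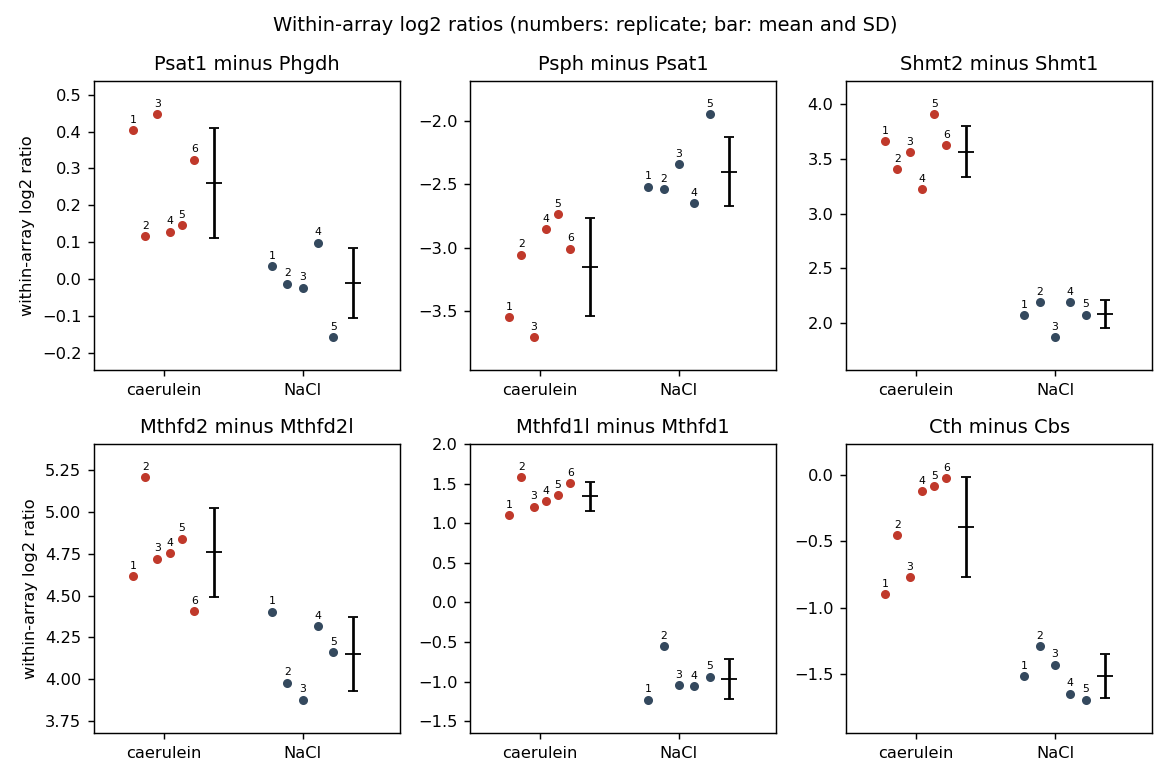
Within-array log2 ratios of 6 pairs of transcripts (vertical axis) on the 6 caerulein and 5 NaCl arrays. Points are arrays with their replicate number, and bars are the mean and SD. The groups lie farthest apart for Mthfd1l minus Mthfd1 and for Shmt2 minus Shmt1.

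Related pathway genes, in lists that hold none of the 10 enzymes, moved in both directions. Of 86 measured members 34 rose and 28 fell, and the median difference was -0.01. Over all 19938 genes, 20.3% were higher and 34.3% lower, and the counts of each list below are to be read beside these shares. With an equal reference gene mean 16 rose and 63 fell: 0 and 16 of the folate list below, 0 and 7 of the glycine list, 0 and 15 of the methionine list, 3 and 11 of the sulfur list, 4 and 10 of the serine list, and 9 and 4 of the ATF4 list. Of 17 folate cycle and folate transport genes, 3 rose and 7 fell (median -0.17). Aldh1l2, the mitochondrial formyl-folate dehydrogenase, averaged 7.35 ± 0.32 in caerulein pancreas (SD, n = 6) and 8.86 ± 0.07 in NaCl pancreas (SD, n = 5), a 2.86-fold fall (limma adjusted p = 1.38e-06). It shares its compartment with Shmt2, Mthfd2 and Mthfd1l, which rose. Ggh, which trims the glutamate tail of folates, fell 2.33-fold (limma adjusted p = 2.31e-05). Fpgs, which adds that tail, rose 1.55-fold as deposited, and its difference was -0.16 with an equal reference gene mean. Slc19a1, the reduced folate carrier of the cell membrane, rose 1.99-fold (difference 1.00, SE 0.06, limma adjusted p = 8.57e-08), with 7.50 to 7.77 in caerulein pancreas and 6.58 to 6.78 in NaCl pancreas. With an equal reference gene mean its difference was 0.20 (limma adjusted p = 0.0629). Slc25a32, the mitochondrial folate carrier, had a difference of 0.25 (SE 0.09, limma adjusted p = 0.0389) with overlapping groups, and the call was lost in 8 of the 11 fits that left out 1 array.

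Of 7 genes of glycine breakdown, 1 rose and 2 fell (median -0.16). Amt, the aminomethyltransferase of the glycine cleavage system, fell 1.52-fold and Gcat, an enzyme of threonine breakdown to glycine, 1.40-fold. Dld, the dehydrogenase shared by this system and other mitochondrial complexes, had a difference of 0.49 (SE 0.12, limma adjusted p = 0.00638), which was not called when arrays were quantile-normalised again (0.20, limma adjusted p = 0.217) or without caerulein replicates 4 to 6 (0.25, limma adjusted p = 0.0769). Of 15 methionine cycle, methylation and methionine salvage genes, 3 rose and 8 fell (median -0.26). Gamt, the methyltransferase that completes creatine synthesis and, like Gnmt, uses S-adenosylmethionine, averaged 8.09 ± 0.16 in caerulein pancreas (SD, n = 6) and 9.47 ± 0.14 in NaCl pancreas (SD, n = 5), a 2.59-fold fall (limma adjusted p = 9.22e-08). The salvage enzymes Apip and Adi1 fell 1.99-fold and 1.85-fold. Mtrr, which reactivates methionine synthase, had a difference of 0.51, and Mtap, the salvage phosphorylase, one of 0.36. Both turned negative with an equal reference gene mean (-0.29 and -0.43), and Mtap was not called without caerulein replicates 4 to 6 (0.19, limma adjusted p = 0.105). Ahcyl1, a relative of adenosylhomocysteinase, had a difference of 0.19 and was not called after cyclic loess (0.01, limma adjusted p = 0.906), and its call was lost in 6 of the 11 fits that left out 1 array.

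Beyond cysteine, 4 of 15 genes rose and 5 fell (median -0.03). Of the genes of glutathione synthesis, Gclc and Gss were 19.5-fold and 2.43-fold higher. Gclm, also of glutathione synthesis and named after its values were seen, did not pass (difference 0.004, limma adjusted p = 0.980), and its groups overlapped. Got1, the cytosolic aspartate aminotransferase, was 5.29-fold higher. Lower were Cdo1 and Csad, which lead from cysteine to taurine (1.60-fold each), and Papss1, which makes the sulfate donor of the cell (1.75-fold). In the whole list, the arrays of the groups were fully separate upward for 4 genes and downward for 5. Over all genes these shares were 16.7% and 20.6%. The 6 called genes named here are among the separate ones, but they were named for the size of their change.

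Genes of serine use and transport were higher for 12 of 18 and lower for 5 (median 0.51). Slc38a1, a carrier of glutamine and other neutral amino acids, averaged 8.43 ± 0.52 in caerulein pancreas (SD, n = 6) and 4.76 ± 0.14 in NaCl pancreas (SD, n = 5), a difference of 3.66 (SE 0.21, limma adjusted p = 2.56e-08). Its NaCl mean lay below the median of every NaCl array and is not known to be above background, so no fold is given. Slc7a11, which imports cystine, rose 4.75-fold and varied widely in caerulein pancreas, between 8.33 and 10.56, against 6.46 to 7.46 in NaCl pancreas. Sptlc2, a subunit of the enzyme that uses serine for sphingolipids, rose 3.81-fold. Sfxn2, a sideroflexin of the mitochondrial membrane, fell 2.17-fold and the serine incorporator Serinc3 1.98-fold. The serine racemase Srr had a difference of -0.70 (limma adjusted p = 0.000604), with means of 4.60 in caerulein pancreas and 5.30 in NaCl pancreas, both below the array medians of their groups.

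Among ATF4 and its targets outside the 10 enzymes, 11 of 14 were higher and 1 was lower (median 1.48). Atf3, Ddit4 and Sesn2 were 18.3-fold, 6.23-fold and 5.48-fold higher, and Atf4 itself, named after its values were seen, was 2.32-fold higher (limma adjusted p = 6.68e-08). Ddit3 (0.10, limma adjusted p = 0.309) and Vldlr (0.06, limma adjusted p = 0.733), also named after their values were seen, did not pass and had overlapping groups. Fgf21, the member that was lower (-0.80, SE 0.27, limma adjusted p = 0.0303), had overlapping groups, and its call was lost in 5 of the 11 fits that left out 1 array. Without caerulein replicates 1 to 3, and without 4 to 6, 0 genes of this list were lower. The plot of related lists sets all of these differences beside those of the 10 enzymes.

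**Figure D4:**
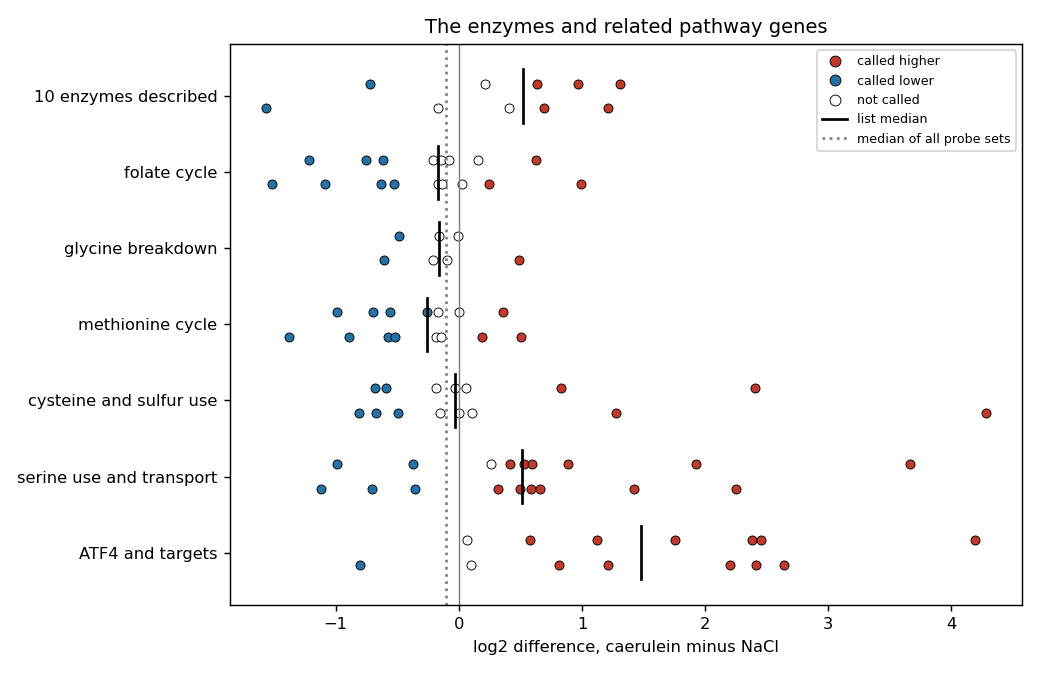
Log2 difference, caerulein minus NaCl (horizontal axis), of the 10 enzyme transcripts and of 6 lists of related genes. Each point is a gene, filled where it passed the test, short vertical lines are list medians, and the dotted line is the median of all probe sets. The median is 0.52 for the enzymes and 1.48 for ATF4 and its targets, and it is below 0 for the folate, glycine, methionine and sulfur lists.

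The transcripts that followed single enzymes most closely from array to array were taken as the 3 named genes with the highest Pearson correlation of deviations from the group means over the 11 arrays. They are maxima over all named genes and carry no p. For Psat1 they were Hdac11, Gtf2f1 and Pacc1 (r = 0.94, 0.93 and 0.92), and for Mthfd2 they were Evi5, Acbd5 and Ssxb3 (0.92, 0.90 and 0.86). For Gnmt they were E2f5, Ptger4 and Tia1 (0.95, 0.94 and 0.93), and for Cbs they were Ppt1, Hsd17b10 and Cnbp (0.96, 0.95 and 0.94). Without the 2 arrays farthest from the enzyme's median, these correlations were 0.76 to 0.94.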

How the data were processed

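Expression was measured in 11 pancreas samples with 1 array each. The authors deposited a log2 value for each probe set on each array. RMA, oligo and limma are named, without versions, per the submitters' processing notes. RMA usually comprises background correction, quantile normalisation of probes and a summary per probe set, and it can flatten changes of very dim and very bright probe sets. Degraded RNA was left out before hybridisation, per the labels' protocols. Array medians were 5.20 to 5.25 in the caerulein group and 5.35 to 5.40 in the NaCl group. Detection calls and batches were not analysed here, so signal over background is unknown for dim probe sets. Precision is limited by the number of arrays.

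Of 35556 probe sets, 21789 carried 1 symbol, 1621 several and 12146 were not listed in the platform annotation. Where a gene had several single-symbol probe sets, the one with the highest mean over all arrays was used. Groups were taken from the sample titles and compared with limma 3.58.1 in R 4.3.3 (lmFit and eBayes, defaults, two-sided, no covariates), with Benjamini-Hochberg adjustment over all probe sets. The fit and the exact permutation test were tested on simulated data.

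The 10 enzymes and all gene lists were chosen with earlier results of these data known. Named were all 10 enzymes, from each related list the 3 largest called rises and falls, and for Psat1, Mthfd2, Gnmt and Cbs the 3 most similar genes; others are marked. Some list members are not analysed here. Promoter windows are RefSeq's (GRCm38.p6); no build is named for the authors' files. The alternatives were other scalings, a trended robust prior, array weights, leaving out the dimmer 50 percent of probe sets, a replicate block and leaving out each array.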

Additional observations from a re-analysis of the deposited data

Results flagged for a closer look

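Each group of each named gene and ratio was searched for an array far from the others (94 groups), a search that flags about 1 in 20 groups by chance. It found 1, the glutathione synthetase gene Gss in caerulein pancreas. There replicate 1 had a log2 value of 7.91 and the nearest of the other caerulein arrays 7.55, while the NaCl arrays lay between 6.04 and 6.49. Without caerulein replicate 1 the difference of Gss was 1.21, against 1.28 with it.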

How the results depend on the processing

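The number of enzymes called stayed at 5 higher and 2 lower, apart from the equal reference gene mean (2 higher, 4 lower, Psph and Shmt1 being called lower) and the fit without NaCl replicate 2 and the one with equal 75th percentiles (3 lower each, Shmt1 being added), and without caerulein replicates 1 to 3, a choice made after the data had been seen (7 higher, Psph and Cth being added). With 1 array left out, the enzymes called were 5 to 5 higher and 2 to 3 lower, the related genes 32 to 33 and 27 to 30, and all probe sets 5471 to 5753 and 8645 to 9338. An equal reference gene mean gave 1532 higher and 31165 lower probe sets, against 5829 and 9884 as deposited, and 16 higher and 63 lower related genes. The number of lower probe sets was 5467 after cyclic loess, 6446 without the dimmer 50 percent (fewer were tested) and 6230 without caerulein replicates 4 to 6 (fewer arrays). Of called probe sets, 62.9% were lower as deposited, 46.4% after cyclic loess and 95.3% with an equal reference gene mean.

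With an equal reference gene mean the sign turned for Phgdh (-0.10), Psph (-0.58), Mthfd2 (-0.16), Cth (-0.39), Fpgs (-0.16), Slc25a32 (-0.54), Dld (-0.31), Mtrr (-0.29), Mtap (-0.43) and Ahcyl1 (-0.60). It also turned for Shmt1 after cyclic loess (0.0197), Ahcyl1 after a second quantile normalisation (-0.12), and Psph (-0.0242) and Cth (-0.0432) without caerulein replicates 4 to 6. The cause was not tested.

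Same-numbered arrays of the groups shared only a number (correlations of their deviations -0.05 to 0.06). With the replicate block, 5 enzymes were higher and 2 lower, and 5452 probe sets were higher and 7909 lower. For the ratios a block leaves 5 pairs and a smallest possible p of 0.0625, which all 6 had, with values of 0.26 (Psat1 minus Phgdh), -0.78 (Psph minus Psat1), 1.47 (Shmt2 minus Shmt1), 0.68 (Mthfd2 minus Mthfd2l), 2.27 (Mthfd1l minus Mthfd1) and 1.05 (Cth minus Cbs). With 1 array left out these ratios ranged from 0.23 to 0.30, -0.84 to -0.64, 1.41 to 1.55, 0.52 to 0.68, 2.24 to 2.40 and 1.05 to 1.23, all still called. Psph minus Psat1 lost its call after a second quantile normalisation (-0.42) and without caerulein replicates 1 to 3 (-0.47), as did Mthfd2 minus Mthfd2l after a second quantile normalisation (0.18) and cyclic loess (0.26). Each enzyme had 1 single-symbol probe set, so no other of that kind could be tried. For Phgdh the probe set shared with Gm6756 was run, a choice made after the data had been seen (0.66).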
